A study of Mus musculus with 8 samples.

Results

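The genes described here encode the machinery of oxidative phosphorylation in mouse liver and colon. They were chosen by name. Protein-coding genes whose symbols start with Nduf, Uqcr, Atp5 or Cox4 to Cox8 were taken, together with Sdha, Sdhb, Sdhc, Sdhd, Cyc1, Cycs and the 13 proteins of mitochondrial DNA. This gave 110 of the 45777 genes in the expression table, 97 encoded in the nucleus and 13 in the mitochondrion. No expression value entered the choice. Ndufb1, a complex I subunit that the table annotates as a long non-coding RNA, fell outside the rule.

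RNA of liver and of colon was sequenced from 4 groups of mice: animals with non-alcoholic steatohepatitis (NASH), NASH animals given bovine colostrum extracellular vesicles (EVs) at a low dose, NASH animals given them at a high dose, and a control group. That the EV groups carried NASH comes from the design text of the series. EVs are small membrane-bound particles, here taken from the first milk of cows. The labels state no diet, strain, sex, age, genotype, vesicle amount or treatment time, and do not say whether animals were pooled. There was 1 library per group and tissue, 8 in all. Each comparison therefore describes 2 libraries, carries no replicate error and no test, and cannot say how far animals of 1 group differ.

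Oxidative phosphorylation takes place in the inner mitochondrial membrane. Complexes I and II pass electrons to ubiquinone, complex III passes them to cytochrome c, and complex IV passes them to oxygen. Complexes I, III and IV pump protons, and complex V, the ATP synthase, uses the proton gradient to make ATP. Mitochondrial DNA encodes subunits of complexes I, III, IV and V, while complex II and all other subunits come from nuclear genes, so the machinery needs transcripts of both genomes. Hepatocytes and colonocytes, the absorptive cells of the colon, are rich in mitochondria.

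Expression was read as FPKM, fragments scaled by transcript length and by mapped reads, as deposited by the authors, which allows levels of genes of different length to be compared. The number of reads behind each value is unknown. Genes at 1 FPKM or more numbered 10469 to 12420 per liver library and 13863 to 14480 per colon library. The summed FPKM of 5 hepatocyte markers was 22584, 23225 and 24027 in NASH, EV low dose and EV high dose livers, against 36686 in control liver, and at most 23.9 in colon. The 4 goblet cell markers summed to 4515 FPKM or more in every colon and to at most 0.175 FPKM in liver, so each tissue label matched its markers.

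Of the 97 nuclear members, 90 reached 1 FPKM in at least 1 liver library and 94 in at least 1 colon library, as did all 13 mitochondrial members in both tissues. The members below that level in liver were Cox4i2, Cox6a2, Cox6b2, Cox7b2, Cox8b, Cox8c and Ndufa4l2, and those below it in colon were Cox6a2, Cox7b2 and Cox8c. The nuclear members comprised 38 subunits of complex I, 8 Ndufaf assembly factors that help build it, 4 subunits of complex II, 9 of complex III, 18 of complex IV (Ndufa4 among them), 17 of complex V and cytochrome c itself. Ndufa4l2 and Cox7a2l, 2 relatives of complex IV subunits, were counted apart.

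Some promoters of nuclear members carried sequence motifs that the choice by name did not use. Of the 97 nuclear members, 78 were matched to 83 RefSeq promoter windows of the mouse assembly GRCm38.p6, each covering the last 250 bases before a transcription start and the first 50 after it. NRF1, nuclear respiratory factor 1, is a transcription factor known for binding respiratory chain promoters. Its longer element, searched on both strands, was in 24.1% of the member windows, against 6.38% of all 21296 windows. All windows here means those of protein-coding genes in the expression table, whether expressed or not. The shorter core GCATGCGC, which can overlap the longer one, was in 15.7% of member windows and 3.52% of all windows. The ETS element CCGGAAG bound by GABPA was in 22.9% of member windows and 11.5% of all windows. AAGATGGCG, a YY1 element, was in 9.64% of member windows and 1.84% of all, and AAGGTCA, a half-site of the estrogen-related receptors, was in 9.64% and 4.08%. A match describes letters in a window and is not a measured binding site.

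Stretches of 6 of these promoters are shown. Of these, 4 carry an NRF1 match and belong to members with broad expression. The 2 tissue isoforms Cox8b and Cox7a1, whose levels set the tissues apart, carried none of the 5 motifs in their window. Broadly expressed members such as Atp5b and Cox7c, with mean levels of 600 and 462 FPKM over all libraries, also carried none. Absence of a motif thus did not set the 2 isoforms apart. The sequences are from RefSeq, GRCm38.p6, and run 5′ to 3′ on the strand of the gene, with the longer NRF1 element or the core in capitals. Cycs is at chr6:50566585-50566664, Atp5k at chr5:108434405-108434484, Atp5h at chr11:115420016-115420095, Cox6a1 at chr5:115349076-115349155 and Cox8b at chr7:140900447-140900526, all on the minus strand. Cox7a1 is at chr7:30184091-30184170 on the plus strand.
Cycs: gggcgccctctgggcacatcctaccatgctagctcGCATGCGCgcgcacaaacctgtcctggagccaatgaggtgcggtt
Atp5k: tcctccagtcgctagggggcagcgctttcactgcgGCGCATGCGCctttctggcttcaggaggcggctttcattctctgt
Atp5h: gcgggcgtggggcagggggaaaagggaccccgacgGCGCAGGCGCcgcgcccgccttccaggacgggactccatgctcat
Cox6a1: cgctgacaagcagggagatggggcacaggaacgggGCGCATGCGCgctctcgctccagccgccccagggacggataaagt
Cox8b: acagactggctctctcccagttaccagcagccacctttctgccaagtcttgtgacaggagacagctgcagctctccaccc
Cox7a1: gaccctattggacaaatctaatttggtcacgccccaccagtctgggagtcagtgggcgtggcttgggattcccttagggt

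The mitochondrial genes lie end to end on 1 circular DNA and are transcribed as long precursors. Some of them share bases, shown here because FPKM of such neighbours are not fully separate. On GRCm38, ATP8 and ATP6 share 43 bases, ND4L and ND4 share 7, ND5 and ND6 share 14 on opposite strands, and ATP6 and COX3 share 1. The first stretch below is chrM:7917-7979 and the second is chrM:10157-10183, both on the plus strand and read from GENCODE transcripts, with the shared bases in capitals.
ATP8 into ATP6: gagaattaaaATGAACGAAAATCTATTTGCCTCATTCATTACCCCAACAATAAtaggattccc
ND4L into ND4: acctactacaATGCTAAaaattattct
Copies of mitochondrial DNA in the nuclear genome also bear on these values. At least 99% identical copies among other annotated transcripts covered 99.9% of COX3, 99.6% of COX2, 99.6% of ATP6, 99.1% of ND3, nearly all of ND4L, 63.6% of ND4 and 31.3% of COX1. No such copy was found of ND1, ND2, ND5, ND6, CYTB or ATP8. At 90% identity or more, copies covered 49.1% of ND2, 99.8% of CYTB, all of ND6 and part of ND5. Their best identities were 96.7%, 92.9%, 93.6% and 92.4%, in that order. Copies outside annotated transcripts were not searched. No label states how reads with several matching places were counted, so levels of the first 7 genes are uncertain. The part of the less similar copies in ND2, ND5, ND6 and CYTB was not tested.

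In all 8 libraries the mitochondrial transcripts COX1 and COX3 of complex IV stood far above those of complex I, and COX2 stood above them by less. COX1, the catalytic subunit that holds the oxygen-reducing centre, was at 3913 FPKM in NASH liver, 4583 FPKM in EV low dose liver and 5525 FPKM in EV high dose liver, against 5861 FPKM in control liver. COX1 reached 10030, 11004 and 8323 FPKM in NASH, EV low dose and EV high dose colon, against 9531 FPKM in control colon. COX3 was at 2184, 2646 and 3110 FPKM in NASH, EV low dose and EV high dose liver, against 4082 FPKM in control liver, and between 4545 and 6424 FPKM in colon. COX1, COX2 and COX3 together made up 85.5% to 91.0% of the mitochondrial members' FPKM in each library.

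ND3 was the highest of the mitochondrial complex I transcripts, at 375, 462 and 551 FPKM in NASH, EV low dose and EV high dose liver, against 621 FPKM in control liver. ND2 was at 24.2, 14.8 and 15.5 FPKM in the same livers, against 32.6 FPKM in control liver, and at 39.3, 11.9 and 15.3 FPKM in NASH, EV low dose and EV high dose colon, against 22.03 FPKM in control colon. ND4L was lowest in every library, at 5.32 to 13.2 FPKM. Genes cut from a shared precursor thus differed widely in FPKM, and COX1 exceeded ND2 by 162 to 925 times depending on the library. Both COX1 and ND2 have nuclear copies at 90% identity or more, whose part in this quotient was not tested. ND6, encoded on the opposite strand from the other proteins, was at 13.9 to 25.1 FPKM.

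**Figure D1:**
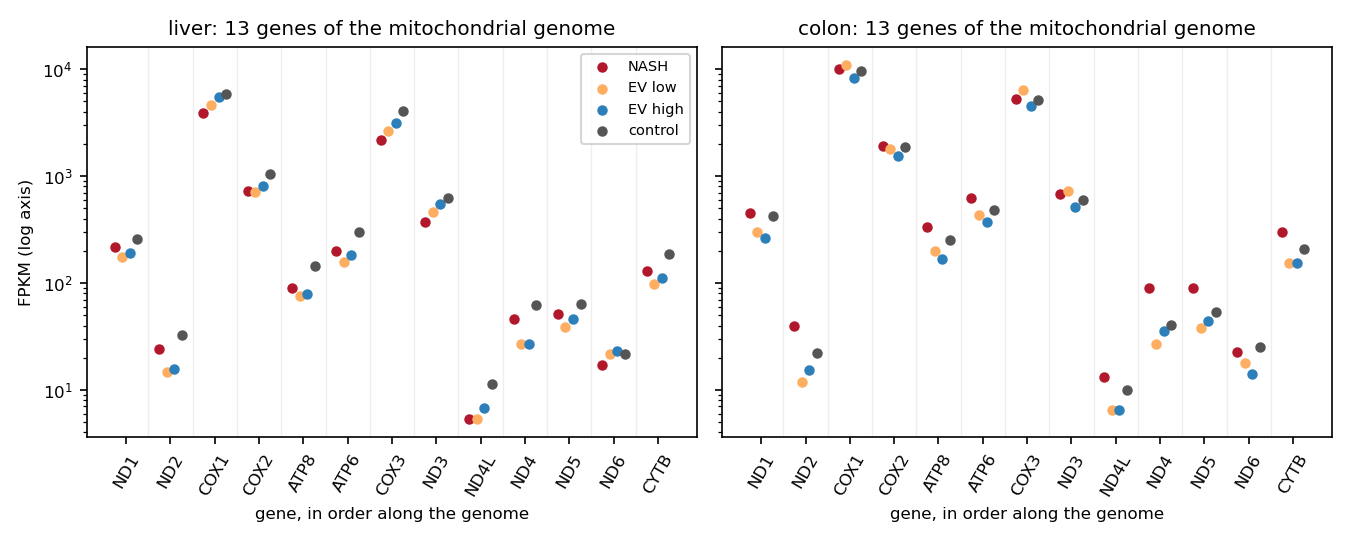
FPKM of the 13 mitochondrial members in each library on a log axis, liver and colon in separate panels, with 1 point per library and no error since there was 1 library per group. COX1 and COX3 are highest and ND4L lowest in every library, and in colon the NASH library is above the others for ND2, ND4 and ND5.

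In NASH liver, nuclear and mitochondrial members were both lower than in control liver, by an amount that depended on how the libraries were scaled. Summed FPKM of the nuclear members was 9969 in NASH liver, against 14124 in control liver, and that of the mitochondrial members was 7984 in NASH liver, against 12679 in control liver. Nuclear members made up 2.66% of all protein-coding FPKM in NASH liver, against 3.23% in control liver, and mitochondrial members 2.13%, against 2.90%. As deposited, 76 of 90 nuclear members and 13 of 13 mitochondrial members had less FPKM in NASH liver than in control liver, where 16.9% of all 12866 expressed genes did. Expressed means 1 FPKM or more in at least 1 library of the tissue. The members thus ran against a table in which most genes read higher in NASH liver.

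Because the median gene stood 0.55 higher in NASH liver on the log2(FPKM + 1) scale, ratios in the following are log2(FPKM + 1) ratios less the median over all expressed genes, unless they are called deposited ratios. Ratios on this scale understate the change of genes at low FPKM. All 90 nuclear members lay below the median gene in NASH over control liver, with a median of -1.04 and a range of -1.70 to -0.18, and all 13 mitochondrial members did, with a median of -1.09. The deposited ratios had medians of -0.48 and -0.54. Lower by 2-fold or more relative to the median gene were 47 of 90 nuclear and 8 of 13 mitochondrial members, where 7.66% of all expressed genes were, and none was higher by 2-fold, where 7.21% of all were. These sizes hang on the scale. With deposited ratios 2 nuclear members and 0 mitochondrial members were 2-fold lower, and with libraries scaled to the same summed FPKM the medians were -0.10 and -0.15 with 0 members of either genome 2-fold lower. In whole tissue, fewer cells of a type and less RNA per cell cannot be told apart.

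Relative to the median gene, genes of high expression were lower in NASH liver in general, though less so than the members. Among protein-coding genes at 30 to 100 FPKM the median ratio was -0.33 over all 958 genes and -1.07 over the 34 nuclear members. At 100 to 300 FPKM it was -0.61 over all 350 genes and -1.04 over 35 members, and at 300 FPKM or more it was -0.87 over all 197 genes and -1.23 over 9 members. The 76 expressed cytosolic ribosomal protein genes, likewise short and abundant, had a median of -0.45, a comparison chosen after the values were seen. Macrophage markers moved the other way, with 5 markers summing to 477 FPKM in NASH liver and 85.2 FPKM in control liver, none of them at 0, while the hepatocyte sum was lower in NASH liver. The part of cell makeup in the members' ratios was not tested.

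The complexes differed in how far they stood below the median gene in NASH liver. Complex IV had the lowest median among nuclear classes, at -1.18 with 8 of 12 members 2-fold lower, and complex I followed at -1.09 with 26 of 38. Complex V had a median of -0.99 with 8 of 17 members 2-fold lower, complex III of -0.87 with 4 of 9, and complex II of -0.68 with 1 of 4. The 8 Ndufaf assembly factors had a median of -0.76 and none 2-fold lower.

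In complexes I, III and V the small and accessory subunits had lower medians than the core or catalytic ones, a split made after the values were seen and not made in complexes II and IV. The 31 accessory subunits of complex I had a median of -1.11, with 23 of them 2-fold lower, against -0.87 for the 7 core subunits of its electron-carrying arm, 3 of which were 2-fold lower. In complex III the 5 small subunits had a median of -1.28 with 4 of them 2-fold lower, and the 4 core and redox subunits one of -0.61 with 0 lower. In complex V the 12 subunits outside the F1 head had a median of -1.21, with 7 of them 2-fold lower, and the 5 subunits of the F1 catalytic head had one of -0.63 with 1 lower.

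Single genes, picked after the values were seen, give examples at the level of FPKM. Atp5b, the catalytic beta subunit of ATP synthase, was at 545 FPKM in NASH liver and 433 FPKM in control liver. Its ratio of -0.22 was the highest in complex V. Atp5h, subunit d of the stalk that holds the head in place, was at 177 FPKM in NASH liver and 328 FPKM in control liver, with a ratio of -1.44. The catalytic subunit was higher as deposited and the stalk subunit lower, so Atp5h FPKM was 0.325 times that of Atp5b in NASH liver and 0.758 times in control liver, a quotient that scaling of the libraries does not touch.

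Pairs in complexes I and III were chosen after the values were seen, and each joins the lowest and the highest ratio of its complex. Their quotients describe these extremes and are no further evidence for the split. Ndufs1, the largest iron-sulfur subunit of complex I, was at 44.0 FPKM in NASH liver and 35.3 FPKM in control liver, while Ndufb3, an accessory subunit of its membrane arm, was at 34.4 and 66.8 FPKM in these livers. Ndufb3 over Ndufs1 was thus 0.782 in NASH liver and 1.89 in control liver. Uqcrb, a small subunit of complex III, was at 153 FPKM in NASH liver and 299 FPKM in control liver, and Uqcrc1, a core protein of that complex, at 119 and 114 FPKM. Their quotient was 1.29 in NASH liver and 2.63 in control liver.

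The lowest ratios belonged to Cox7a1 at -1.70, Atp5k at -1.58, Uqcrb at -1.51, and Ndufb3 and Ndufa6 at -1.49. Cox7a1, the heart and muscle isoform of a complex IV subunit, was at 1.47 FPKM in NASH liver and 4.47 FPKM in control liver, which is little RNA in either. Atp5k, subunit e of the ATP synthase membrane part, was at 157 FPKM in NASH liver and 322 FPKM in control liver. Nearest to the median gene were the assembly factors Ndufaf4 at -0.18 and Ndufaf7 at -0.26, with Atp5b, Ndufs1 at -0.24 and Cox7a2l at -0.33.

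The subunits of succinate dehydrogenase, complex II, which is also an enzyme of the citric acid cycle, did not move as 1 block. Sdha, the flavin subunit, was at 102 FPKM in NASH liver and 100.1 FPKM in control liver. Sdhb, the iron-sulfur subunit, was at 128 FPKM in NASH liver and 181 FPKM in control liver, with a ratio of -1.04. The membrane anchors Sdhc and Sdhd had ratios of -0.64 and -0.71. Cyc1, the cytochrome c1 of complex III, had a ratio of -0.74, and Cycs, cytochrome c itself, one of -0.45 with 38.0 FPKM in NASH liver and 35.2 FPKM in control liver.

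Among mitochondrial members, NASH over control liver ranged from -1.51 for ND4L and -1.45 for COX3 to -0.79 for ND1. ND3 was at -1.28, ATP8 at -1.23, COX1 at -1.14, ATP6 at -1.13, CYTB at -1.09 and COX2 at -1.05. ND4 was at -0.99, ND2 at -0.97, ND6 at -0.90 and ND5 at -0.87. All 13 thus read lower in NASH liver, and their range lay within that of the nuclear members. The ribosomal RNA of mitochondria, which is not among the members, was also lower, with mt-Rnr2 at 3363 FPKM in NASH liver and 6527 FPKM in control liver. As a share of all members' FPKM, mitochondrial transcripts made up 44.5% in NASH liver and 47.3% in control liver.

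**Figure D2:**
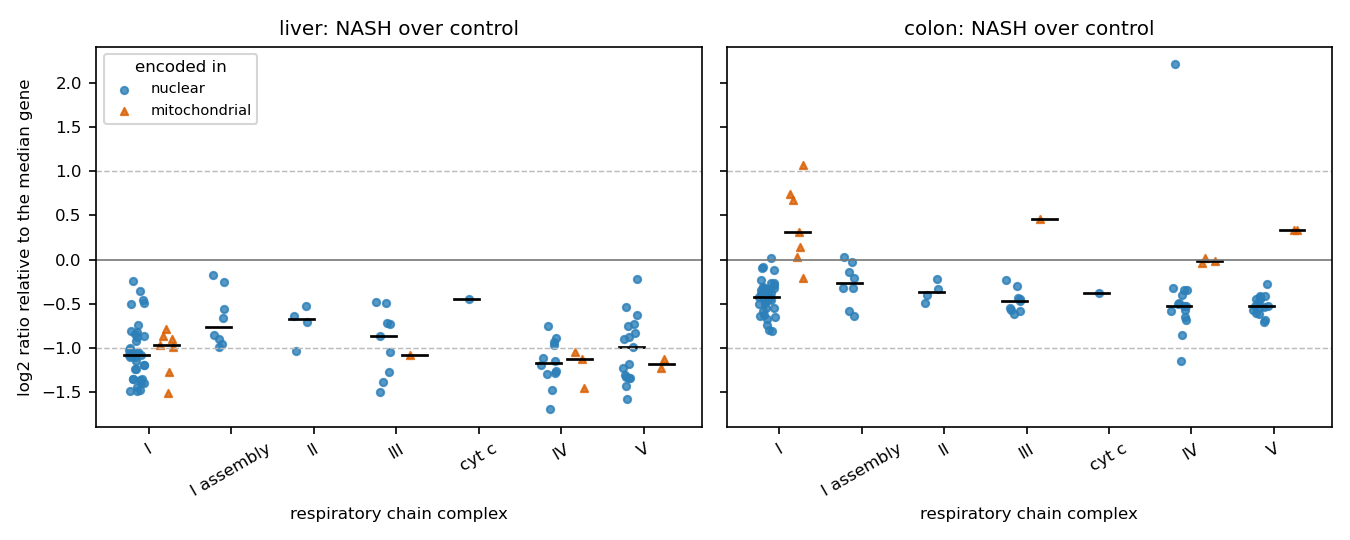
NASH over control as log2(FPKM + 1) ratio relative to the median gene, 1 point per expressed member, grouped by complex and genome, liver and colon in separate panels (points are spread sideways for sight). Black bars are medians, dashed lines mark 2-fold, and Ndufa4l2 and Cox7a2l are not drawn. Every liver point lies below 0, while in colon the mitochondrial points lie mostly above 0 and the nuclear points mostly below.

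Transcript length ran along with the ratio in NASH liver. The length of a gene was the median over all its protein-coding transcripts in GENCODE, which need not be the length of its main transcript. Ndufs1, the largest iron-sulfur subunit of complex I, was so given 651 bases, and the accessory subunit Ndufb2 2413 bases. By this rough measure nuclear members have short transcripts. Their median length was 683 bases over the 95 with a length, against 2128 bases for other expressed protein-coding genes. Over the 88 expressed nuclear members with a length, the log2 length and the NASH over control ratio had a Pearson r of 0.51 and a Spearman rho of 0.50, against 0.12 and 0.16 over 1412 other protein-coding genes at 30 FPKM or more. These points are genes of the same 2 libraries and no independent replicates. Among genes at 30 FPKM or more and under 600 bases the median ratio was -1.15 for 28 members and -0.67 for 107 other genes, and at 600 to 1000 bases it was -1.09 for 30 members and -0.49 for 390 others. At 1000 to 2000 bases it was -0.72 for 16 members and -0.44 for 520 others. The nuclear members had the lower median in each of these bins. The part of transcript length in the split between small and catalytic subunits was not tested. In NASH over control colon the Spearman rho was 0.43 over nuclear members and 0.35 over other genes at 30 FPKM or more. In EV low dose over NASH colon it was -0.31 and -0.40, and in EV high dose over EV low dose colon 0.21 and 0.42. The Pearson r in these comparisons was weaker, such as 0.09 and 0.10 in NASH over control colon. The part of length in the colon ratios was not tested. This look at length was added after the values were seen.

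**Figure D3:**
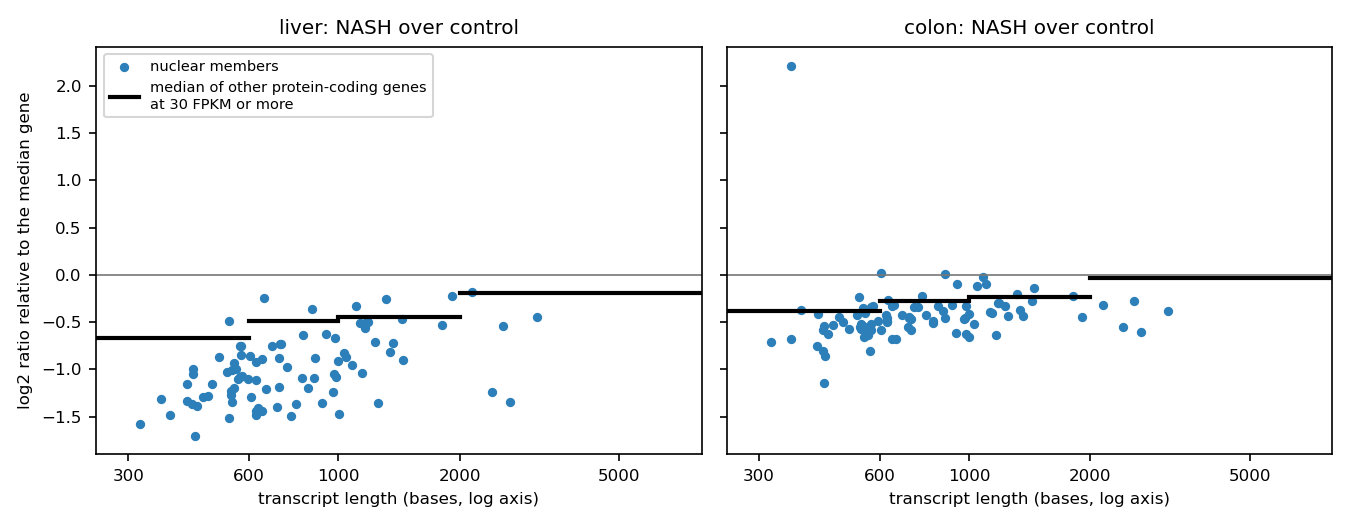
Log2 ratio of NASH over control relative to the median gene against transcript length in bases (log axis), liver left and colon right, with 1 point per nuclear member and black lines for the median of other protein-coding genes at 30 FPKM or more in each length bin. In liver the points lie mostly below the lines, with medians of -1.15 for members and -0.67 for other genes under 600 bases, and the high colon point is Cox8b at 2.22.

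By FPKM as deposited, both EV livers held slightly more nuclear oxidative phosphorylation RNA than NASH liver. Summed FPKM of nuclear members was 11093 in EV low dose liver and 11569 in EV high dose liver, against 9969 in NASH liver. The summed FPKM of all genes was higher too, at 864840 and 848143, against 780949 in NASH liver. The size of the rise therefore depends on how the libraries are scaled. Of protein-coding FPKM, nuclear members held 2.94% and 2.90% in the EV low dose and EV high dose livers, against 2.66% in NASH liver. As deposited, 78 of 90 nuclear members were higher in EV low dose liver than in NASH liver, where 28.9% of all expressed genes were. For EV high dose liver it was 77 of 90, where 33.4% of all were. Both comparisons are made with the same NASH library, and the comparison of NASH with control uses it too, so any deviation of that library enters all of them.

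The sizes were small, and 0 of 90 nuclear members were 2-fold apart in either comparison. Of all expressed genes, 0.443% were 2-fold higher and 0.225% lower in EV low dose over NASH liver, and 0.816% and 0.373% in EV high dose over NASH liver. The median ratio of nuclear members was 0.29 for EV low dose over NASH liver, with 86 of 90 above the median gene, and 0.36 for EV high dose over NASH liver, with 84 of 90. The medians of the complexes lay close together, between 0.25 and 0.29 at the low dose and between 0.21 and 0.38 at the high dose. Cytosolic ribosomal proteins had medians of 0.16 and 0.17, and all protein-coding genes at 100 to 300 FPKM had medians of 0.18 and 0.24, so abundant genes in general stood somewhat above the median gene.

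Ndufa13, an accessory subunit of complex I, had the highest ratio at both doses, 0.84 and 0.89. Its FPKM was 68.7 in EV low dose liver and 71.4 in EV high dose liver, against 41.9 in NASH liver, while control liver had 74.1. Ndufb3 was at 46.0 FPKM in EV low dose liver and 49.6 FPKM in EV high dose liver, against 34.4 FPKM in NASH liver. Both genes were higher in the EV libraries than in NASH liver. Atp5h was at 223 FPKM in EV low dose liver and 244 FPKM in EV high dose liver, against 177 FPKM in NASH liver, and Cox7b, a small complex IV subunit, at 124 and 135 FPKM, against 95.6 FPKM in NASH liver.

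A few members went below the median gene with the vesicles. Ndufs7, which carries the last iron-sulfur cluster before ubiquinone, was at 24.4 FPKM in EV low dose liver and 23.2 FPKM in EV high dose liver, against 31.8 FPKM in NASH liver, and control liver had 46.5 FPKM. Ndufa8, an accessory subunit of complex I, was at 43.4 and 41.2 FPKM in the EV low dose and EV high dose livers, against 54.7 FPKM in NASH liver. Atp5d, the delta subunit of the F1 head, had ratios of -0.06 and -0.21. The quotient of the stalk to the catalytic subunit, Atp5h over Atp5b, was 0.407 in EV low dose liver and 0.468 in EV high dose liver, against 0.325 in NASH liver, and 0.758 in control liver.

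The mitochondrial members of the EV livers did not move as 1 group. Their summed FPKM was 9014 in EV low dose liver and 10669 in EV high dose liver, against 7984 in NASH liver, or 2.39% and 2.67% of protein-coding FPKM, against 2.13%. The median ratio over the 13 genes was -0.10 for EV low dose over NASH liver and 0.02 for EV high dose over NASH liver, with 0 of 13 apart by 2-fold in either. As deposited, 9 of 13 were lower in EV low dose liver than in NASH liver and 7 of 13 in EV high dose liver, where 71.0% and 66.6% of all expressed genes were, so these counts were near the background. COX1 had ratios of 0.37 and 0.63, COX3 of 0.41 and 0.64 and ND3 of 0.44 and 0.69, in the order low dose and high dose. ND4 had ratios of -0.62 and -0.63 and ND2 of -0.54 and -0.48. ND6, from the opposite strand, had ratios of 0.48 and 0.56. COX1, COX3 and ND3 were thus higher with the vesicles and ND2 and ND4 lower, and the deposited FPKM ordered them alike.

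COX1 FPKM exceeded that of ND4, on the same strand, 170 times in EV low dose liver and 207 times in EV high dose liver, against 84.9 times in NASH liver, and 93.1 times in control liver. Taking COX1, COX2, COX3 and ND3 against the other 9 genes, a division made after the values were seen, the quotient of the sums was 13.7 in EV low dose liver and 14.6 in EV high dose liver, against 9.23 in NASH liver, and 10.7 in control liver. The EV libraries lay above both other livers in these quotients. Nearly identical nuclear copies exist for genes on both sides of this division, and their part was not tested.

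**Figure D4:**
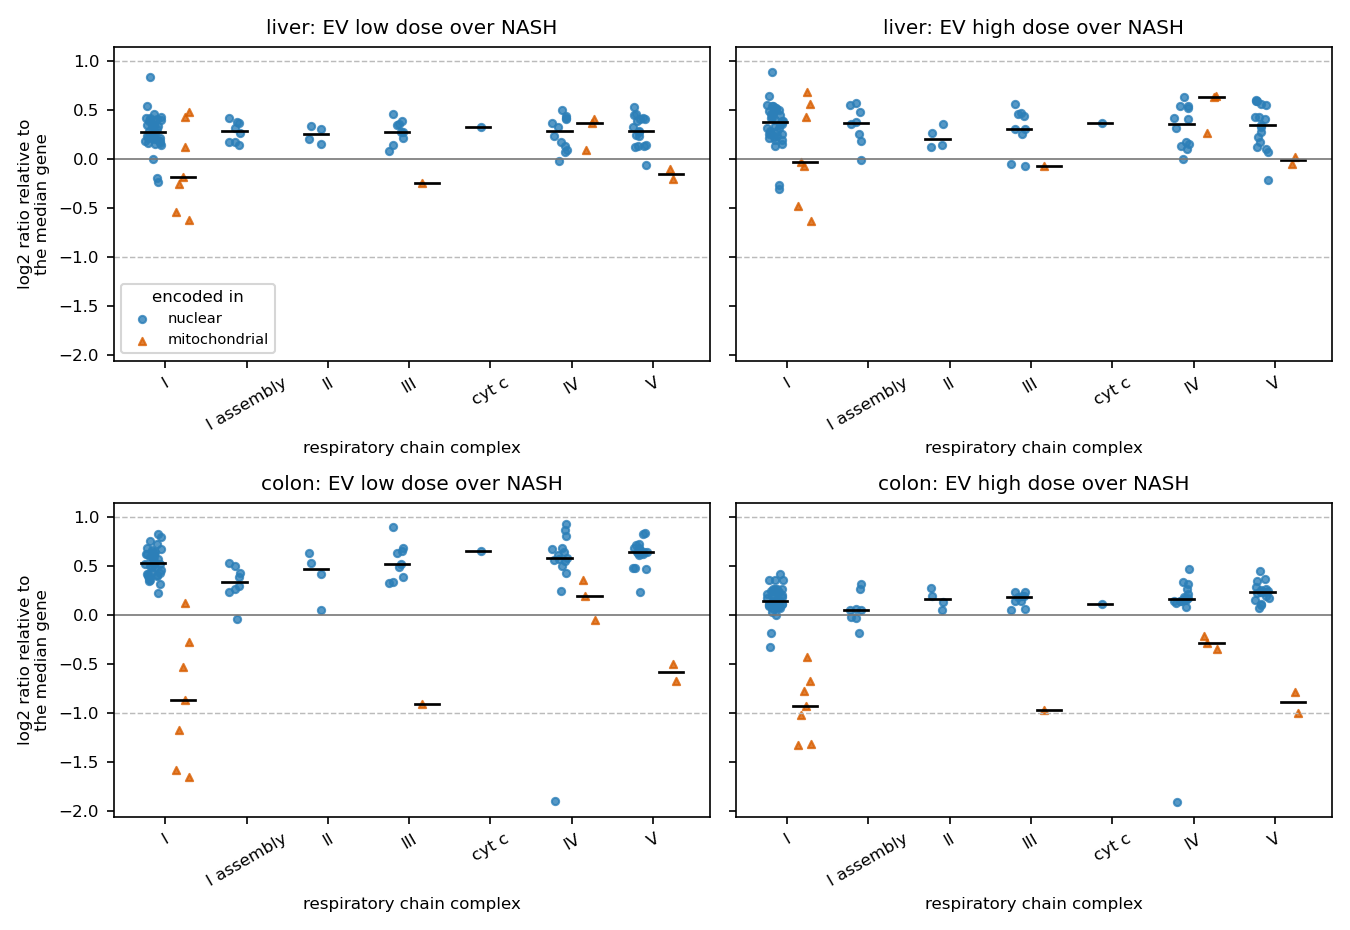
Ratios of each EV dose to NASH on the log2(FPKM + 1) scale relative to the median gene, 1 point per expressed member, by complex and genome, in liver and colon (points are spread sideways). Black bars are medians, dashed lines mark 2-fold, and Ndufa4l2 and Cox7a2l are not drawn. Nuclear medians lie above 0 in every panel, and the mitochondrial points in colon reach below the 2-fold line.

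EV high dose liver differed little from EV low dose liver. The nuclear members had a median ratio of 0.06 in EV high dose over EV low dose liver, from -0.34 for Cyc1 to 0.28 for Ndufb2, and the mitochondrial members one of 0.18 with 12 of 13 above the median gene. None was 2-fold apart, where 0.303% of all expressed genes were higher and 0.163% lower. As deposited 66 of 90 nuclear members and 12 of 13 mitochondrial members were higher in EV high dose liver, where 50.5% of all expressed genes were, and 24 of 90 nuclear members were lower, where 49.4% of all were.

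In NASH colon the 2 genomes went opposite ways. Summed FPKM of nuclear members was 13599 in NASH colon, against 18167 in control colon, while that of the mitochondrial members was 19819 in NASH colon, against 18626 in control colon. As deposited, 90 of 94 nuclear members were lower in NASH colon, where 42.9% of all 15245 expressed genes were, and 12 of 13 mitochondrial members were higher, where 57.0% of all were. Mitochondrial transcripts made up 59.3% of all members' FPKM in NASH colon, against 50.6% in control colon. This share does not depend on how the libraries were scaled.

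The size in single nuclear genes was below 2-fold with 2 exceptions. The median ratio in NASH over control colon was -0.44 for nuclear members, 91 of 94 of which lay below the median gene, and 0.31 for the mitochondrial members. The median gene itself was at 0.06 as deposited. The 2 exceptions were Cox8b at 2.22 and Cox6b2 at -1.15, where 2.12% of all expressed genes were 2-fold higher and 2.26% lower. Cox6b2 was scarce, at 0.534 FPKM in NASH colon and 2.259 FPKM in control colon. It reached 1 FPKM in control colon only, so it was counted only through the library where it was high. Complexes IV and V had medians of -0.52, complex III of -0.47, complex I of -0.42, complex II of -0.37 and the assembly factors of -0.26. Protein-coding genes at 100 to 300 FPKM had a median of -0.29 and cytosolic ribosomal proteins of -0.25.

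Cox7a1 was at 36.9 FPKM in NASH colon and 64.9 FPKM in control colon, with a ratio of -0.86. Ndufa3, an accessory subunit of complex I, was at 106 FPKM in NASH colon and 179 FPKM in control colon, and Ndufs6, which holds a zinc ion in complex I, was at 56.2 and 94.8 FPKM. Both had ratios of -0.81. Ndufs7 stood nearest to the median gene among complex I subunits, at 50.7 FPKM in NASH colon and 48.0 FPKM in control colon. Goblet cell markers, 4 genes, summed to 4515 FPKM in NASH colon and 10131 FPKM in control colon, none at 0 in either library. They did not move alike: Clca1, Zg16 and Fcgbp were lower in NASH colon, but Muc2 was higher, at 1760 against 1519 FPKM. The 5 colonocyte markers summed to 1863 FPKM in NASH colon and 1591 FPKM in control colon, though Aqp8 among them was lower in NASH colon. Smooth muscle markers summed to 1227 and 1351 FPKM. Their part in the members' ratios was not tested.

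Among the mitochondrial members of NASH colon, the complex I transcripts ND4, ND2 and ND5 were furthest up. ND4 was at 90.2 FPKM in NASH colon and 40.6 FPKM in control colon, with a ratio of 1.07, the only mitochondrial member 2-fold apart. ND2 had a ratio of 0.74 and ND5 of 0.68. CYTB, the cytochrome b of complex III, was at 298 FPKM in NASH colon and 208 FPKM in control colon. ND4L, the scarcest transcript, had a ratio of 0.31. COX1, COX2 and COX3, with ratios of 0.01, -0.02 and -0.04, were close to the median gene, and ND6 was lower at -0.21. The mitochondrial ribosomal RNA mt-Rnr2 was at 7975 FPKM in NASH colon and 8663 FPKM in control colon.

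Cox8b, the isoform of complex IV subunit 8 known from heart, muscle and brown fat of mice, stood out in NASH colon. The gene lies at chr7:140898942-140900446 on mm10. It was at 8.26 FPKM in NASH colon, 1.38 FPKM in EV low dose colon and 1.49 FPKM in EV high dose colon, against 0.908 FPKM in control colon, and was listed at 0 in every liver. It made up 1.70% of the summed FPKM of Cox8a and Cox8b in NASH colon and 0.149% in control colon, so the common isoform Cox8a still prevailed, at 478 FPKM in NASH colon and 608 FPKM in control colon.

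Markers of fat were, like Cox8b, highest in NASH colon. Among the other colons, EV high dose colon had the most Cox8b and the lowest sum of fat markers. Cox8b lay near the limit of 1 FPKM there, at 0.908 to 1.49 FPKM, so its order among them is uncertain. Ucp1, the uncoupling protein of brown fat, was at 15.2 FPKM in NASH colon and listed at 0 in the other 3 colons. Cidea, a lipid droplet protein of brown fat, was at 3.604, 0.438 and 0.304 FPKM in NASH, EV low dose and EV high dose colon, against 0.173 FPKM in control colon. The 5 white and brown adipocyte markers summed to 44.2, 11.7 and 4.08 FPKM in those colons, against 6.61 FPKM in control colon, with none at 0 in NASH colon and 2 at 0 in each other colon. The striated muscle markers summed to 20.5, 17.2 and 20.1 FPKM, against 14.4 FPKM in control colon. The part of fat in the Cox8b value was not tested.

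EV low dose colon had more nuclear oxidative phosphorylation RNA than any other colon. Summed FPKM of nuclear members was 19953 in EV low dose colon, against 13599 in NASH colon, and control colon had 18167. As deposited, 90 of 94 nuclear members were higher in EV low dose colon than in NASH colon, where 43.3% of all expressed genes were. The median ratio was 0.56, and 91 of 94 lay above the median gene. Cox8b, at -1.90, was the only nuclear member 2-fold apart, where 1.06% of all expressed genes were 2-fold higher and 1.61% lower.

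Complex V had the highest median ratio in EV low dose over NASH colon, at 0.64, followed by complex IV at 0.58, complex I at 0.54, complex III at 0.52 and complex II at 0.47. Cox7a2, the ubiquitous partner of Cox7a1, was at 331 FPKM in EV low dose colon, against 181 FPKM in NASH colon. Uqcrb was at 503 FPKM in EV low dose colon, against 280 FPKM in NASH colon. With ratios of 0.93 and 0.90 these were the highest members, and small subunits such as Cox7b at 0.87, Ndufa3 at 0.83 and Atp5md at 0.83 came next. Sdha was nearly level, at 77.2 FPKM in EV low dose colon and 77.4 FPKM in NASH colon. Cytosolic ribosomal proteins had a median of 0.57 in this comparison, as high as that of the members.

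Most mitochondrial members were lower in EV low dose colon than in NASH colon, though their summed FPKM was 21116 in EV low dose colon, against 19819 in NASH colon, as COX1 and COX3 hold most of it and were higher. As deposited, 10 of 13 were lower in EV low dose colon than in NASH colon, where 56.6% of all expressed genes were. Their median ratio was -0.53, and 3 of 13 were 2-fold lower: ND4 at -1.66, ND2 at -1.58 and ND5 at -1.17. ND4 was at 26.8 FPKM in EV low dose colon, against 90.2 FPKM in NASH colon, and ND5 at 37.9 FPKM, against 90.1 FPKM. CYTB was at 152 FPKM, against 298 FPKM in NASH colon. COX3 at 0.36, COX1 at 0.19 and ND3 at 0.13 were the 3 members above the median gene.

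EV high dose colon lay closer to NASH colon in nuclear members and lower in mitochondrial ones. Summed FPKM of nuclear members was 15745 in EV high dose colon, against 13599 in NASH colon. As deposited, 87 of 94 were higher in EV high dose colon, where 53.1% of all expressed genes were, and the median ratio was 0.17. Abundant genes in general lay near this. At 100 to 300 FPKM the median was 0.16 over all protein-coding genes and 0.20 over nuclear members. At 300 FPKM or more it was 0.15 and 0.22. Cox8b at -1.91 was again the only nuclear member 2-fold apart, where 1.08% of all expressed genes were higher and 1.48% lower. Mitochondrial members summed to 15990 FPKM in EV high dose colon, against 19819 FPKM in NASH colon, with 13 of 13 lower as deposited, where 46.8% of all expressed genes were. Their median ratio was -0.78, and ND2 and ND4 at -1.32 and ND5 at -1.02 were 2-fold lower.

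The mitochondrial share of the members' FPKM was 51.4% in EV low dose colon and 50.4% in EV high dose colon, against 59.3% in NASH colon, and 50.6% in control colon. NASH colon thus stood apart from the other 3 colons in this share. The quotient of COX1, COX2, COX3 and ND3 to the other 9 mitochondrial genes was 16.9 in EV low dose colon and 13.9 in EV high dose colon, against 9.09 in NASH colon, and 11.3 in control colon. The EV libraries were highest in this quotient in both tissues. All these values rest on the 1 NASH library of colon.

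**Figure D5:**
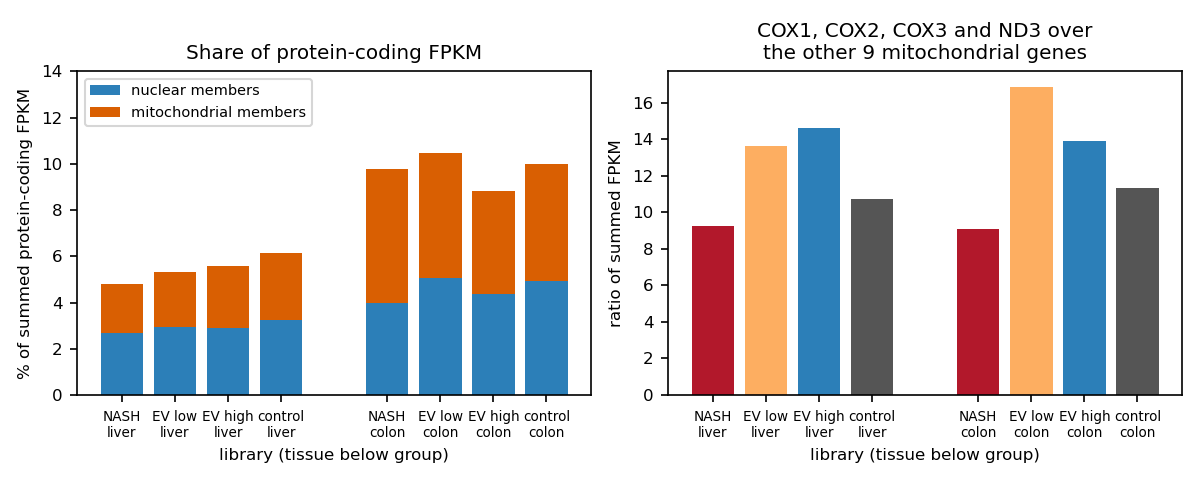
Left, percent of all protein-coding FPKM held by nuclear and by mitochondrial members in each library, as stacked bars from 0; right, summed FPKM of COX1, COX2, COX3 and ND3 over that of the other 9 mitochondrial genes. In liver both shares are lowest in NASH, at 2.66% and 2.13%, in colon the nuclear share is lowest in NASH, at 3.98%, and the mitochondrial share highest, at 5.80%, and the quotient at right is lowest in NASH in both tissues.

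Between the doses, EV high dose colon had less of the nuclear members than EV low dose colon. As deposited, 90 of 94 were lower in EV high dose colon, where 38.7% of all expressed genes were, and the median ratio was -0.39 with none 2-fold apart, where 0.728% of all were higher and 0.794% lower. The cytosolic ribosomal proteins had a median of -0.43. The mitochondrial members had a median of -0.29, and 5 of 13 were higher as deposited, where 61.1% of all expressed genes were. In liver the corresponding nuclear median was 0.06, and the difference between the tissues was not tested.

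Liver and colon of the control group used some subunits in different measure. Cross-tissue ratios turned with the scaling: nuclear members had a median of 0.60 for control liver over control colon relative to the median gene and of -0.33 as deposited, and mitochondrial members of 0.73 and -0.19. Relative to the median gene 15 of 93 nuclear members were 2-fold higher and 1 lower in control liver, where 17.4% of all expressed genes were higher and 16.3% lower, which is near the background. Quotients within a library are free of this scaling. Ndufa4, first named as a complex I subunit and now placed in complex IV, was at 635 FPKM in control liver and 283 FPKM in control colon, and its quotient to Cox4i1, the widely expressed isoform of complex IV subunit 4, was 1.24 in control liver and 0.349 in control colon. That quotient was 0.997 to 1.27 over the 4 livers and 0.307 to 0.349 over the 4 colons, so the tissues did not overlap.

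Cox7a1 was the 1 nuclear member 2-fold lower in control liver, at 4.47 FPKM against 64.9 FPKM in control colon. It made up 2.06% of the summed FPKM of Cox7a1 and Cox7a2 in control liver and 18.9% in control colon, and 0.755% to 2.06% over the livers and 14.8% to 18.9% over the colons. Smooth muscle, whose 5 markers summed to 1351 FPKM in control colon and 1.18 FPKM in control liver, is part of the colon wall, and its share in these values was not tested. Uqcrq, a small subunit of complex III, was at 85.7 FPKM in control liver and 50.3 FPKM in control colon. The other tissue isoforms were scarce in both: Cox6a2 reached at most 0.511 FPKM in any library, Cox4i2 at most 1.62 FPKM, Ndufa4l2 at most 1.18 FPKM, and Cox7b2 was listed at 0 in all 8.

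Other mitochondrial genes were not all lower in NASH liver. These lists were chosen with earlier results of the data known. The mitochondrial ribosomal proteins, 78 genes, had a median ratio of -0.55 in NASH over control liver with 4 genes 2-fold lower, a share below the 7.66% of all expressed genes, and its deposited median was close to 0. The 36 expressed assembly factors outside the Ndufaf genes had a median of -0.33 with 6 lower. The 26 genes for replication, transcription and RNA handling of mitochondrial DNA had one of -0.26, among them Hsd17b10, a subunit of the enzyme that trims mitochondrial tRNA, at -1.58. The 16 citric acid cycle genes had one of -0.11. Mdh2, malate dehydrogenase of that cycle, was at 104 FPKM in NASH liver and 37.5 FPKM in control liver.

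The regulators of mitochondrial biogenesis, 9 expressed genes, had a median of 0.10 in NASH over control liver, close to the median gene. Their ratios ran from -0.41 to 0.47, with 5 above and 4 below the median gene. Ppargc1a, a coactivator of respiratory genes, was at 2.26 FPKM in NASH liver and 1.07 FPKM in control liver. Esrra, the estrogen-related receptor alpha, was at 10.6 and 4.99 FPKM, and Gabpa, with the lowest ratio, at 9.31 and 8.32 FPKM. These FPKM are as deposited, where the median gene itself stood 0.55 higher in NASH liver. The 16 expressed carriers and import genes had a median of -0.01, with Ucp2, an uncoupling protein relative found in many tissues, at 29.2 FPKM in NASH liver and 3.06 FPKM in control liver. Ucp2 was at 18.5 FPKM in EV low dose liver and 14.6 FPKM in EV high dose liver, and in colon at 37.4 and 62.5 FPKM in the EV low dose and EV high dose libraries, against 79.6 FPKM in NASH colon and 32.4 FPKM in control colon.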

How the data were processed

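The authors deposited 1 table of FPKM, which scales fragments by transcript length and mapped reads, with 45777 genes and 1 column per library. Per the labels' protocols, total RNA went into a stranded TruSeq Total RNA kit. Trimmomatic 0.38, StringTie, HISAT2 and the build mm10 appear in the submitters' processing notes, without roles. No source used here gives read depth or the handling of reads with several matches. Groups were taken from sample titles. Symbols came from NCBI for 45679 gene identifiers, and 98 were not matched.

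Ratios were computed on log2(FPKM + 1) over genes at 1 FPKM or more in at least 1 compared tissue library (12866 in liver, 15245 in colon, 14834 between control tissues), less their median. Genes were counted at 2-fold. With 1 library per group no test was run. Transcript lengths of nuclear genes were medians over the protein-coding transcripts of each gene in GENCODE. Gene positions and mitochondrial gene lengths came from RefSeq. Nuclear copies of mitochondrial transcripts came from BLAST 2.17.0 (90% identity, 100 bases). Named members were all mitochondrial ones, the complex II genes, Cyc1, Cycs, paired isoforms, members 2-fold apart, and the highest and lowest per complex and comparison. The quotients, roles and length bins were added after values were seen. The members and lists were chosen with earlier results of these data known. Alternatives were other pseudocounts, filters, scalings and centres. The code was tested on simulated data with known differences. Python 3.11.15, numpy 2.4.6, pandas 2.3.3 and scipy 1.17.1 were used.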

Additional observations from a re-analysis of the deposited data

Results flagged for a closer look

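Mitochondrial members stood on opposite sides of the median gene in the tissues under the same contrast. In NASH over control their median log2 ratio was -1.09 in liver and 0.31 in colon. In EV high dose over EV low dose it was 0.18 in liver and -0.29 in colon. With 1 library per group and tissue, the difference between the tissues was not tested.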

How the results depend on the processing

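Of 198 medians under alternatives, 189 were counted as unchanged, meaning that the ratio shifted by at most 1.5-fold and kept its direction. The nuclear medians of EV over NASH were all smaller than such a shift. Any of them could thus fall close to the median gene and still count as unchanged. A change of direction was counted only where the reported median was at least 0.1 in size, so smaller medians among the 189 could change sign. The mitochondrial median of EV high dose over NASH liver, for 1, was 0.02 as reported and -0.11 as deposited. In NASH over control liver the nuclear median was -0.10 with libraries scaled to the same summed FPKM and -0.44 with no filter, and the mitochondrial median -0.15 with the same sum, since the centring is then absent or set by unexpressed genes. In control liver over control colon the nuclear median was -0.33 as deposited, -0.51 with the same sum and -0.32 with no filter, and the mitochondrial median -0.19, -0.37 and -0.19. Members 2-fold lower in NASH over control liver numbered 0 to 64 nuclear (47 as reported) and 0 to 12 mitochondrial (8 as reported). Between control tissues 0 to 33 nuclear members were higher (15 as reported) and 1 to 10 lower (1 as reported), and 0 to 7 mitochondrial ones higher (4 as reported). Mitochondrial members 2-fold lower numbered 3 to 5 in EV low dose over NASH colon and 2 to 6 in EV high dose over NASH colon (3 as reported in each), and nuclear ones 0 or 1 in NASH over control colon and 1 or 2 in EV low dose over NASH colon (1 as reported in each). No mitochondrial share of the members' FPKM moved. No paired analysis was possible because each group had 1 library per tissue, and for the same reason no replicate could be left out. Depth was unknown, so the precision of low genes such as Cox8b and Cox6b2 cannot be given.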
